A study of Arabidopsis thaliana with 21 samples.

Results

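The genes described here are 42 nuclear genes of the photosynthetic apparatus of *Arabidopsis thaliana*, out of 27444 protein-coding genes on chromosomes 1 to 5. They were chosen by a list of loci, with earlier results of these data known, and not by a rule on their peaks. The list held 4 genes of the light-harvesting antenna of photosystem I (*LHCA*) and 12 of the antenna of photosystem II (*LHCB*). It also held 4 genes of the small subunit of Rubisco (*RBCS*), 12 of photosystem I subunits (*PSA*) and 10 of photosystem II subunits (*PSB*). The RefSeq product names were compared with the listed families. *NPQ4* is listed with the photosystem II subunits because it encodes PsbS, while RefSeq names its product as a chlorophyll a-b binding family protein. The data were 9 lists of ChIP-seq peaks from Col-0 seedlings that were 6 days old, had their roots removed, and were grown at 20°C under 16 h of light and 8 h of dark. H2A.Z was immunoprecipitated from 3 WT and 3 *mbd9-1* samples and acetylated histone H4 (H4Ac) from 3 WT samples, with 1 list for each library. The *mbd9-1* plants carry a T-DNA insertion in *MBD9*, the gene of a methyl-CpG-binding domain protein, and the WT plants carry no such insertion. The shoots of many plants were pooled in each library, so a mark held by few cells cannot be told apart from a low level in all of them. Libraries of *arp6-1*, input libraries and the H4Ac samples from *mbd9-1* were not analysed here.

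Photosystems I and II are pigment and protein complexes of the thylakoid membrane, and the LHCA and LHCB proteins bind chlorophyll and pass light energy to them. Rubisco fixes carbon dioxide in the stroma, and its small subunit is encoded in the nucleus while its large subunit is encoded in the chloroplast. Many nuclear genes of these families are highly expressed in green shoots and respond to light. H2A.Z is a variant of histone H2A that the SWR1 complex places in nucleosomes, in plants often near the start of genes and over the bodies of genes that respond to the environment. Acetylation of histone H4 is a mark commonly found around the start of transcribed genes. Transcript levels were not among these data, so no peak could be set beside the expression of its gene.

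The lists gave the position of each peak and no height. A gene was called for a mark when a peak overlapped its body or the 500 bp upstream of its transcription start site (TSS) by at least 1 bp in at least 2 of 3 libraries. The covered length is the number of bp of this window that lay under peaks. The lists held 5215 to 9260 peaks for H2A.Z and 10439 to 12030 for H4Ac, and the peaks of *mbd9-1* replicate 3 were the narrowest, with a median width of 381 bp against 587 to 668 bp in the other H2A.Z lists. The paper names this H2A.Z library as an exception to the high correlation of replicates, with a moderate correlation to the other *mbd9-1* libraries.

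Most of the photosynthesis genes had neither mark in WT. Of the 42 genes, 31 (73.8%) had neither an H4Ac nor an H2A.Z call, against 35.9% of all protein-coding genes. H4Ac was called at 9 genes (21.4%), against 46.3% of all genes. H2A.Z was called at 2 genes (4.76%), against 28.8% of all genes. No gene had both marks, against 11.0% of all genes, so that the 9 genes had H4Ac only and the 2 genes H2A.Z only, against 35.3% and 17.8% of all genes. In 24 of the 42 genes (57.1%) no peak of any of the 9 lists touched the window, against 19.3% of all genes. These shares are descriptions of a chosen list and carry no test.

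**Figure D1:**
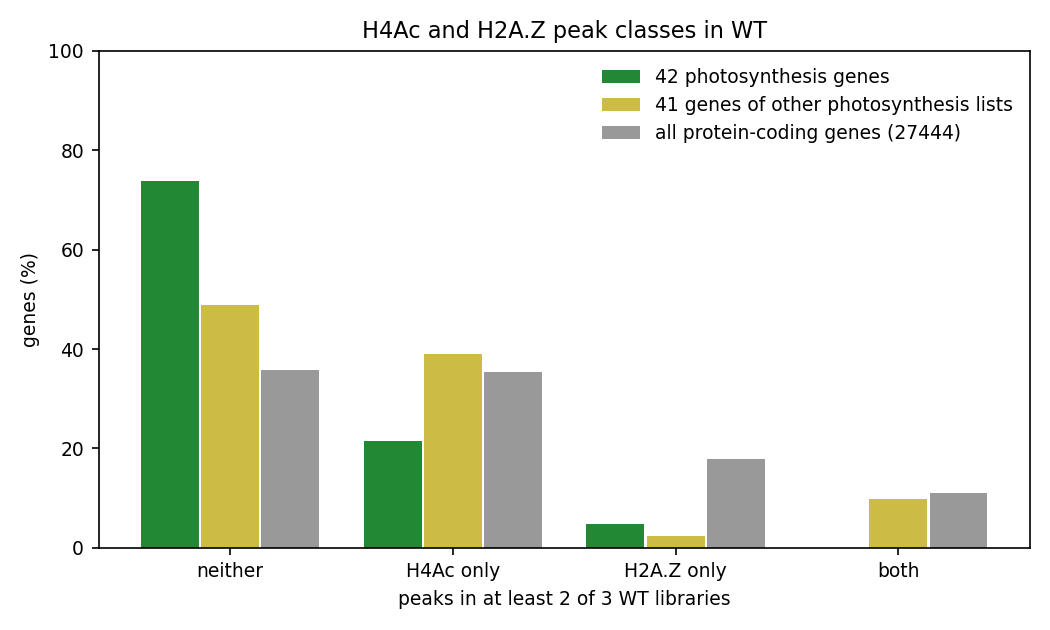
Share of genes (%) in the 4 classes of WT calls, for the 42 photosynthesis genes, the 41 genes of the other photosynthesis lists described further on, and all 27444 protein-coding genes; each bar is 1 share of genes. The photosynthesis genes stand at 73.8% in the class with neither mark, and their bar for both marks is at 0.

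The same order was seen in each library. H4Ac peaks touched 13, 9 and 8 of the 42 genes in replicates 1, 2 and 3, a mean of 23.8% ± 6.30 (SD, n = 3), while the mean over all genes was 45.6% ± 3.23 (SD, n = 3). WT H2A.Z peaks touched 2, 2 and 1 of the genes, a mean of 3.97% ± 1.37 (SD, n = 3), against 29.1% ± 5.61 (SD, n = 3) over all genes. In each of these 6 WT lists the share of photosynthesis genes with a peak was below the share of all genes. H4Ac replicate 1, which had the longest of the H4Ac lists, held the peak at 4 of the 5 genes with a peak in a single H4Ac library.

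The photosynthesis genes are short, with bodies of 720 to 3207 bp and a median of 1386 bp, against a median of 2078 bp over all genes. Among the 19074 protein-coding genes whose bodies fall in that range of lengths, H4Ac was called at 45.3%, H2A.Z at 30.5% and neither at 35.0%, a comparison that was added after the data had been seen. Some of the genes are near copies of each other, and 50-base reads from identical stretches cannot be placed. The share of 50-base stretches of the window that occur once in the genome was 81.8% at *LHCB2.2*, 84.1% at *LHCB2.1*, 85.3% at *CAB2* and 85.8% at *RBCS1B*, and its median over the 42 genes was 100%. Only exact copies were counted, over the whole window. Stretches that differ by a single base count as unique, so the share may overstate how well reads could be placed. Of the 30 genes with at least 95% of unique stretches, 20 (66.7%) had neither mark, against 35.9% of all genes. The share of all genes was not limited to those with at least 95% of unique stretches. Of the 12 genes under 95%, *NPQ4* had an H4Ac call. The others, with neither mark, were *CAB1*, *CAB2*, *CAB3*, *LHB1B1*, *LHB1B2*, *LHCA2*, *LHCB2.1*, *LHCB2.2*, *RBCS1B*, *RBCS2B* and *RBCS3B*.

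**Figure D2:**
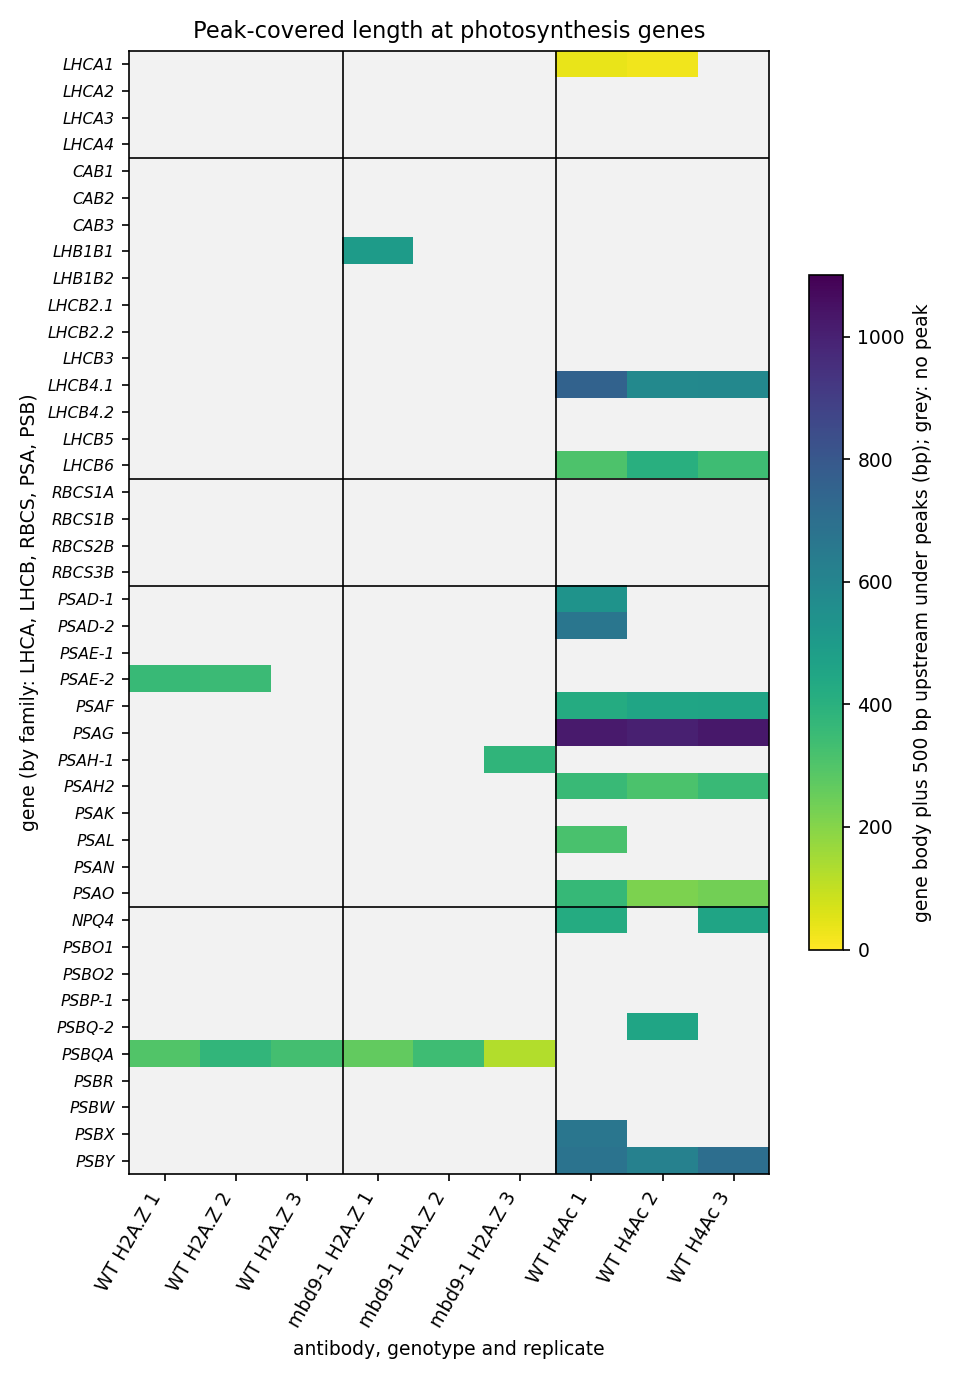
Length in bp of the gene body plus 500 bp upstream that lay under peaks, by colour, for each of the 42 genes (rows, grouped by family) in each of the 9 libraries (columns); grey cells held no peak. The H4Ac columns hold most of the coloured cells, *PSBQA* is coloured in all 6 H2A.Z columns, and the *RBCS* rows are grey throughout.

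By family, H4Ac was called at 4 of 12 *PSA* genes, 2 of 12 *LHCB* genes, 2 of 10 *PSB* genes, 1 of 4 *LHCA* genes and 0 of 4 *RBCS* genes, against 46.3% of all genes. In the gene body alone it was called at 2 *PSA* genes, 1 *LHCB* gene, 2 *PSB* genes and no *LHCA* or *RBCS* gene, against 44.0% of all genes. The order of the families thus depended on the upstream 500 bp. H2A.Z was called at 1 *PSA* gene and 1 *PSB* gene, against 28.8% of all genes. With families of 4 to 12 genes, a difference of a gene or a few between families is a small count.

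In the photosystem I antenna, *LHCA1* (AT3G54890, chr3:20339504-20341176) was the gene with an H4Ac call. Its covered length was 37, 25 and 0 bp in replicates 1, 2 and 3, the lowest mean of the 9 called genes, at 20.7 ± 18.9 bp (SD, n = 3). The 2 peaks were 744 and 717 bp wide, were centred in the upstream gene *CXIP1*, and ended 464 and 476 bp before the TSS of *LHCA1*, so that their edge alone lay in the window. *LHCA2*, *LHCA3* and *LHCA4* had 0 bp in every list, but a WT H2A.Z peak lay 243 to 355 bp beyond the window of *LHCA2* in all 3 libraries.

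In the photosystem II antenna, *LHCB4.1* (AT5G01530, chr5:208866-210548), which encodes a minor antenna protein (CP29), had 755, 582 and 586 bp under H4Ac peaks, 641 ± 98.7 bp (SD, n = 3), the highest mean of the family. In replicate 1, 111 bp of this came from a second peak in the upstream gene *AIRP2*. All 3 libraries had a peak inside the gene, from 70, 153 and 156 bp to 713, 734 and 741 bp downstream of the TSS. These peaks lay mostly over coding sequence, with 496, 510 and 510 bp of it. The related gene *LHCB4.2* had 0 bp in all 9 lists. At *LHCB6* (AT1G15820, chr1:5446462-5447880), which encodes the minor antenna protein CP24, the covered length was 308, 404 and 343 bp. All of it was upstream, under peaks 2037 to 2207 bp wide that were centred in the divergently transcribed gene *AT1G15830*, also covered *AT1G15825* within it, and ended 97 to 193 bp before the TSS of *LHCB6*.

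The genes of the major antenna, which encode the most abundant chlorophyll-binding proteins, had no H4Ac or WT H2A.Z peak in any library. These are *CAB1*, *CAB2*, *CAB3*, *LHB1B1*, *LHB1B2*, *LHCB2.1*, *LHCB2.2* and *LHCB3*. *CAB3*, *CAB2* and *CAB1* are neighbours and span chr1:10472280-10479114, 6835 bp, and none of the 9 lists held a peak within that span or 500 bp to either side. The nearest H4Ac peak to the window of *CAB1* was 7306, 7323 and 7361 bp away as the smallest, median and largest distance over the 3 libraries. At *LHCB2.1* the nearest H4Ac peak was 21362 to 21471 bp from the window and the nearest WT H2A.Z peak 21357 to 21495 bp. *LHCB5*, which encodes the minor antenna protein CP26, had no peak in its window, but an H4Ac peak lay 158 to 207 bp beyond it in all 3 libraries.

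No *RBCS* gene had a peak in any of the 9 lists. *RBCS3B*, *RBCS2B* and *RBCS1B* lie in tandem on chr5:15376988-15385320, and *RBCS1A* (AT1G67090, chr1:25048158-25049667) stands alone. At *RBCS1A*, where 100% of the 50-base stretches were unique, the nearest H4Ac peak was 1091 to 1203 bp from the window and the nearest WT H2A.Z peak 3886 to 14676 bp. At the 3 tandem genes the nearest H4Ac peak was 14200 to 21068 bp away. H2A.Z peaks lay closer, and 3 of the 9 lists held a peak within the tandem span or 500 bp to either side. These 3 were H2A.Z lists of both WT and *mbd9-1*, and did not include every WT list. The nearest WT H2A.Z peak to the window of *RBCS3B* was 484, 505 and 4722 bp away as the smallest, median and largest distance. At *RBCS2B* these distances were 800, 843 and 8641 bp. Over the 24 genes with no peak in any list, the smallest distance to an H4Ac peak had a median of 3145 bp, from 158 to 21362 bp. For WT H2A.Z the median was 3294 bp, from 243 to 21357 bp.

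Among photosystem I subunits, *PSAG* (AT1G55670, chr1:20802670-20803449) had the greatest H4Ac cover of the 42 genes. Its covered length was 1022, 1005 and 1027 bp, 1018 ± 11.5 bp (SD, n = 3). The peaks were 1833 to 1873 bp wide and ran over the TSS, from 1328 to 1351 bp upstream to 504 to 526 bp downstream. They also covered all 914 bp of *AT1G55675*, the gene that ends 211 bp upstream of *PSAG* on the same strand, so that each peak spanned both genes. *PSAF* (AT1G31330, chr1:11214676-11216141), which encodes a subunit on the plastocyanin side of the complex, had 424, 454 and 456 bp inside the gene. These are the most common peak widths of the 3 lists, and *PSAF* was not called once peaks of that width were left out.

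At *PSAH2* and *PSAO* the cover was upstream. *PSAH2* had 355, 312 and 353 bp, and the peaks were centred in *AT1G52220*, which encodes a thylakoid curvature protein and is transcribed away from *PSAH2* from a start 32 bp further upstream. *PSAO* had 362, 216 and 233 bp, under peaks centred in the divergent gene *AT1G08390*. Both genes had an H4Ac peak of the neighbour reaching into their upstream 500 bp in 3 of 3 libraries, and none in their own bodies. *PSAD-1* with 535 bp, *PSAD-2* with 668 bp and *PSAL* with 317 bp had an H4Ac peak in replicate 1 and 0 bp in the other 2 libraries, and were not called. *PSAE-1*, *PSAK* and *PSAN* had 0 bp in every list.

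Among photosystem II subunits, *PSBY* (AT1G67740, chr1:25394031-25395249) had 683, 616 and 701 bp under H4Ac, 667 ± 44.8 bp (SD, n = 3). The peaks lay within the gene, from 20 to 123 bp to 720 to 743 bp downstream of the TSS, in all 3 libraries. *NPQ4* (AT1G44575, chr1:16870221-16873427) encodes PsbS, which is needed for the rapid dissipation of excess light energy. It had 424, 0 and 456 bp, with both peaks 1494 bp or more downstream of the TSS and each at the most common width of its list, so its call rested on the narrowest peaks of 2 libraries. *PSBX* had 670 bp in replicate 1 and *PSBQ-2* 454 bp in replicate 2, each with 0 bp in the other 2 libraries. *PSBO1*, *PSBO2* and *PSBP-1*, which encode proteins of the oxygen-evolving complex, had 0 bp in every list, as did *PSBR* and *PSBW*.

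Both genes with an H2A.Z call took it from a peak over the gene next to them. *PSBQA* (AT4G21280, chr4:11334352-11335815) encodes a small extrinsic protein of the oxygen-evolving complex. Its covered length in WT was 297, 376 and 328 bp, 334 ± 39.8 bp (SD, n = 3), from peaks 1117, 1200 and 1328 bp wide. Their centres lay in *ATK1*, a kinesin gene that is transcribed in the opposite direction and starts 183 bp upstream, and they ended 204, 125 and 173 bp before the TSS of *PSBQA*. *PSAE-2* (AT2G20260, chr2:8736734-8737767), which encodes a stromal subunit of photosystem I, had 358, 350 and 0 bp, from peaks 439 and 461 bp wide centred in the divergent gene *AT2G20250*. These are the most common widths of the lists of WT replicates 1 and 2, and *PSAE-2* had no peak in replicate 3.

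Fewer genes were called when the gene body alone was used. In the body, H4Ac was called at 5 genes (*LHCB4.1*, *NPQ4*, *PSAF*, *PSAG* and *PSBY*), 11.9% of the 42, against 44.0% of all genes. H2A.Z was called in the body of 0 genes, against 25.8% of all genes. Of the 9 photosynthesis genes with an H4Ac call, 4 (44.4%) had none in the body, against 5.07% of the 12712 genes with an H4Ac call. Of the 2 genes with an H2A.Z call, both had none in the body, against 10.5% of the 7906 genes with an H2A.Z call. Another protein-coding gene lay within 500 bp upstream of 17 of the 42 genes (40.5%), against 35.5% of all genes.

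**Figure D3:**
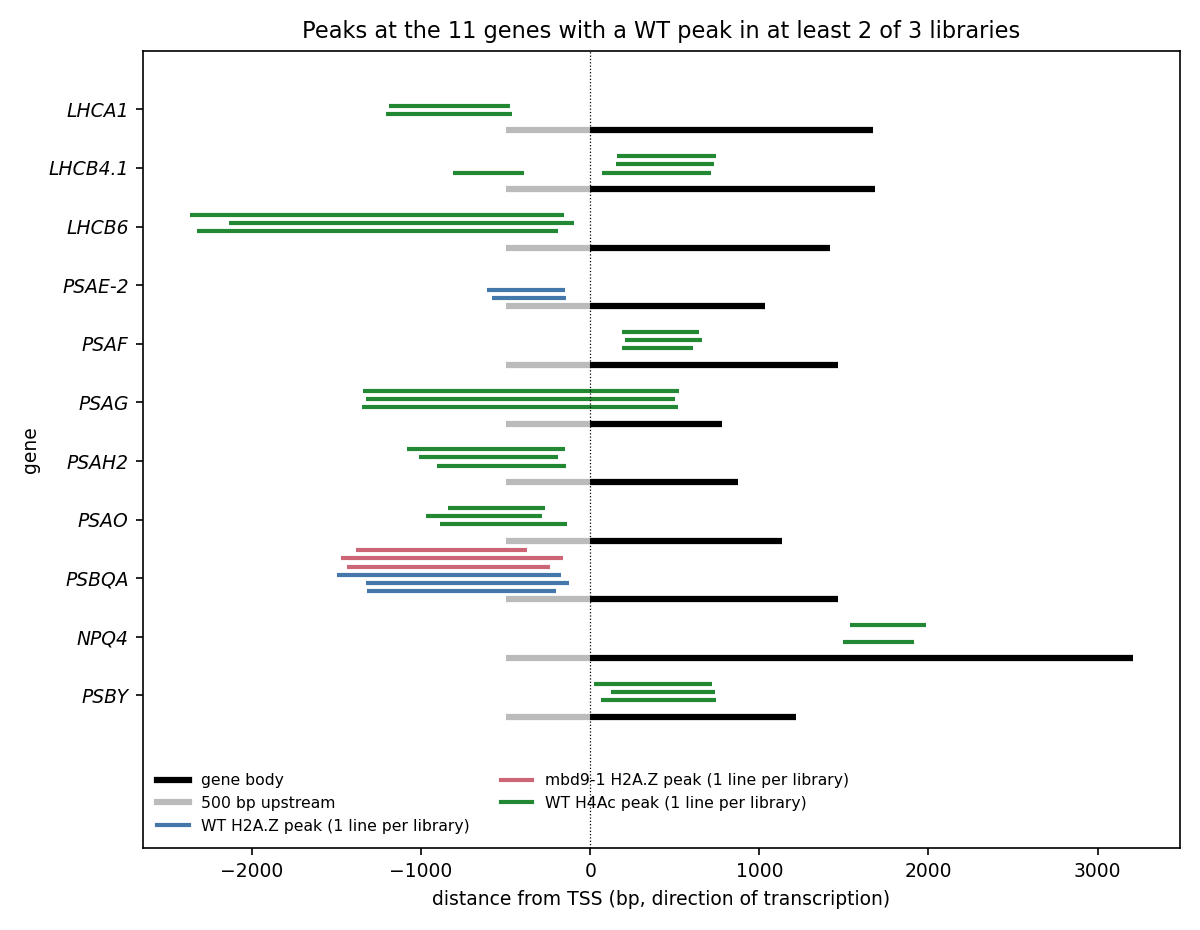
Peaks at the 11 genes with a WT call, drawn to scale by distance from the TSS in bp; thick bars show the gene body (black) and the 500 bp upstream (grey), and each coloured line is the peak of 1 library. At *LHCA1*, *LHCB6*, *PSAE-2*, *PSAH2*, *PSAO* and *PSBQA* every peak ends upstream of the TSS.

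The position of the peaks differed from that of all genes in the same way. Over all protein-coding genes, the share under an H4Ac peak was highest 450 bp downstream of the TSS, at 37.8% ± 3.08 (SD, n = 3), and at that position it was 12.7% ± 3.64 (SD, n = 3) of the photosynthesis genes. Just before the TSS the photosynthesis genes were also lower, at 3.17% ± 1.37 against 13.8% ± 0.470 of all genes (SD, n = 3) at -100 bp. Farther upstream the order differed, with 17.5% ± 2.75 (SD, n = 3) of the photosynthesis genes and 8.57% ± 0.732 (SD, n = 3) of all genes under an H4Ac peak at -800 bp, the position of their own highest share, which lies outside the window used for the calls. WT H2A.Z was highest over all genes at 400 bp downstream, 17.9% ± 4.27 (SD, n = 3), where 0 of the photosynthesis genes had a peak in any library. In *mbd9-1* the highest share over all genes was 9.37% ± 4.10 (SD, n = 3) at 500 bp downstream, and 1.59% ± 1.37 (SD, n = 3) of the photosynthesis genes were covered there.

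**Figure D4:**
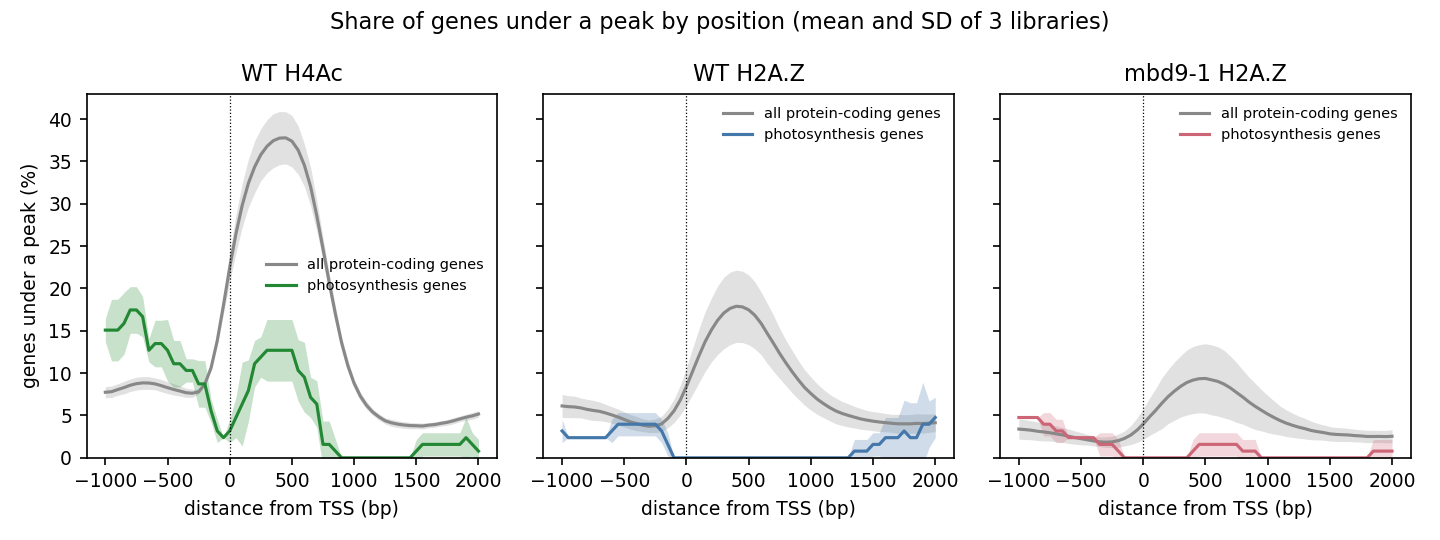
Share of genes under a peak (%) by distance from the TSS (bp), for WT H4Ac, WT H2A.Z and *mbd9-1* H2A.Z; lines are means of 3 libraries and bands are 1 SD. Where the line of all protein-coding genes is highest in each panel, the photosynthesis genes lie below it, at 12.7% against 37.8% for H4Ac 450 bp downstream.

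The sequences upstream of the genes with the most cover show where the peaks end relative to the promoter. By a rule, the 2 genes with the greatest mean H2A.Z cover and the 2 with the greatest mean H4Ac cover among genes with no H2A.Z peak are shown, and *CAB1* and *RBCS1A* were added after the values had been seen as genes without a peak. Each sequence holds the bases before the annotated TSS, up to 250 or as far as the neighbouring gene, 5′ to 3′ on the strand of the gene, from the RefSeq TAIR10.1 genome. Capitals mark matches on either strand to 5 motifs: the G-box CACGTG, the I-box core GATAAG, the TATA box TATAAA, the CCAAT box CCAAT and the telo box AAACCCT.
*PSBQA*, chr4:11334169-11334351, plus strand: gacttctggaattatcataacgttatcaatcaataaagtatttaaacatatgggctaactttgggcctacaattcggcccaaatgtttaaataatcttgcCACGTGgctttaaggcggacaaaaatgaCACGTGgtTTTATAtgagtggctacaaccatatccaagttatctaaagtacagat
*PSAE-2*, chr2:8736598-8736733, plus strand: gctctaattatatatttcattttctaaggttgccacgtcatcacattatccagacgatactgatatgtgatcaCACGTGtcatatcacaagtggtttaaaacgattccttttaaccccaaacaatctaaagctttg
*PSAG*, chr1:20803450-20803660, minus strand: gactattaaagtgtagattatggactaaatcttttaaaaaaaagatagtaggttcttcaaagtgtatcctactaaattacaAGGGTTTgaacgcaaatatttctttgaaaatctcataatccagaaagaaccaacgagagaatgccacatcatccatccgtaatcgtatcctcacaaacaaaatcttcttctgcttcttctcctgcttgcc
*PSBY*, chr1:25395250-25395499, minus strand: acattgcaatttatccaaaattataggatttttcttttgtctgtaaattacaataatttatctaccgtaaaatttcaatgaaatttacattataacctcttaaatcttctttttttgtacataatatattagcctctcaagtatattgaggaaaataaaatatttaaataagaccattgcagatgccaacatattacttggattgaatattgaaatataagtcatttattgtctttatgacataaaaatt
*CAB1*, chr1:10477635-10477884, plus strand: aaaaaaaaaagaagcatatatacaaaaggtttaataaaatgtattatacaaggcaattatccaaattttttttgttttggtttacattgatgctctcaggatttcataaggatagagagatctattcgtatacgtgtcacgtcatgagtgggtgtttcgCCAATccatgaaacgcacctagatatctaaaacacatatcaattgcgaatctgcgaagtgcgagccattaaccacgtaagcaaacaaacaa
*RBCS1A*, chr1:25049668-25049917, minus strand: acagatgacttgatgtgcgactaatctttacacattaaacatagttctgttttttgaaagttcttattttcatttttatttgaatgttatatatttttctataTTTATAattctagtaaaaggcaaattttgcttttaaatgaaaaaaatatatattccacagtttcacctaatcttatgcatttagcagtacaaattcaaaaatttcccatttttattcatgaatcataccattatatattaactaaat

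In *PSAG* the whole sequence shown lay under H4Ac peaks in all 3 libraries, while in *PSBY* none of it did, since the peaks began 20 to 123 bp downstream of the TSS. In *PSBQA* the WT H2A.Z peaks of replicates 2 and 3 ended inside the sequence, upstream of both G-boxes, which began 83 and 55 bp before the TSS. In *PSAE-2* the H2A.Z peaks ended 143 and 151 bp before the TSS, outside the sequence. A G-box was found in the 250 bp upstream of 8 of the 42 genes (19.0%) and of 6.49% of 27443 promoters of the same length. The I-box core was found at 10 genes (23.8%) against 12.3%, the CCAAT box at 26 (61.9%) against 46.0%, the TATA box at 18 (42.9%) against 47.3%, and the telo box at 1, *PSAG* (2.38%), against 7.33%. These 250 bp include part of the neighbouring gene where that gene is closer. A match of letters is a description and not a bound site.

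H4Ac and H2A.Z libraries of the same number in WT were made from the same sheared chromatin, so they were compared as pairs. The covered length of H4Ac exceeded that of H2A.Z in all 3 pairs at 7 of 42 genes (16.7%), against 32.8% of all genes. They were *LHCB4.1*, *LHCB6*, *PSAF*, *PSAG*, *PSAH2*, *PSAO* and *PSBY*. None of the 7 had a WT H2A.Z peak in any library. They are therefore the genes with an H4Ac peak in all 3 libraries (36.5% of all genes), and not a separate result. The covered length of H4Ac was below that of H2A.Z in all 3 pairs at 1 gene, *PSBQA* (2.38%), against 11.5% of all genes. *PSBQA* had no H4Ac peak. The H4Ac lists held more and wider peaks than the WT H2A.Z lists, so covered lengths are not on the same scale. For each of these 8 genes p = 0.25 in an exact two-sided sign-flip test, the smallest p that 3 pairs allow, so no gene could pass 0.05.

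The comparison of *mbd9-1* with WT asks whether H2A.Z at these genes depends on MBD9, and it rested on few peaks. H2A.Z was called at 1 of the 42 genes in *mbd9-1* (*PSBQA*, 2.38%), against 16.0% of all genes. Peaks touched 2, 1 and 2 genes in *mbd9-1* replicates 1, 2 and 3, and 2, 2 and 1 genes in WT, so that each range was 1 to 2 genes. At *PSBQA* the covered length in *mbd9-1* was 266, 340 and 128 bp, 245 ± 108 bp (SD, n = 3), a difference from WT of -89 bp. The genotypes overlapped there (p = 0.3, exact two-sided permutation test, 3 libraries against 3, smallest possible p 0.1), and the lowest value came from replicate 3, the list with the narrowest peaks.

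*PSAE-2* had 0 bp in each *mbd9-1* library against 358, 350 and 0 bp in WT (difference -236 bp, p = 0.4 in the same exact permutation test), and WT replicate 3 was at 0 bp like the *mbd9-1* libraries. In *mbd9-1* alone, *LHB1B1* had 495 bp in replicate 1 and *PSAH-1* had 381 bp in replicate 3, both inside the gene and both at the most common width of their list, with 0 bp in the other 5 H2A.Z libraries. No photosynthesis gene was lower in every *mbd9-1* library than in every WT library, against 8.83% of all genes, and none was higher, against 1.10% of all genes. Since 40 of the 42 genes had no WT H2A.Z peak in any library, a loss could be seen at 2 genes at most. By the rule that every *mbd9-1* library be lower, it could be called only at *PSBQA*, since *PSAE-2* had 0 bp in WT replicate 3. Peak lists also cannot show a difference in signal below the threshold of the peak caller.

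Other genes of photosynthesis were closer to the genome as a whole for H4Ac. Over 4 further lists with 41 genes, H4Ac was called at 20 (48.8%), H2A.Z at 5 (12.2%), both at 4 (9.76%) and neither at 20 (48.8%). Over all genes these shares were 46.3%, 28.8%, 11.0% and 35.9%. In the gene body alone, H4Ac was called at 17 of the 41 genes (41.5%), against 44.0% of all genes. H2A.Z was called in the body of 1 (2.44%), against 25.8% of all genes, so few H2A.Z calls in the body were also seen in these lists. Among 10 genes of electron transport and the ATP synthase, H4Ac was called at 4 and H2A.Z at 0. They were *PETC*, for the Rieske protein of the cytochrome b6f complex, with 741, 696 and 925 bp, *PETE1*, for a plastocyanin, with 786, 765 and 833 bp, *ATPD*, for a subunit of the ATP synthase, with 642, 685 and 930 bp, and *PDE334*, for another subunit of the ATP synthase, with 753, 822 and 1354 bp.

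Of 14 genes of the Calvin-Benson cycle, which fixes carbon, 7 had H4Ac and 1 had H2A.Z, against 46.3% and 28.8% of all genes. *TIM*, for the plastid triose phosphate isomerase, had 1093, 932 and 941 bp under H4Ac, and *PGK1*, for a phosphoglycerate kinase, had 884, 810 and 815 bp. *HCEF1*, for the plastid fructose-1,6-bisphosphatase, had both marks, with 439, 461 and 428 bp under H2A.Z in WT and 495, 0 and 0 bp in *mbd9-1*. Of 10 genes of chlorophyll synthesis, 5 had H4Ac and 2 had H2A.Z. Some of these calls rested on few bp. *GUN4* had 49, 0 and 14 bp under WT H2A.Z and 57, 0 and 43 bp under H4Ac. *CH1* had 64, 86 and 7 bp under H4Ac. *HEMA1*, for the glutamyl-tRNA reductase of tetrapyrrole synthesis, had 745, 695 and 732 bp under H4Ac, and *CHLI1*, for a subunit of magnesium chelatase, had 0, 289 and 217 bp under H2A.Z. Of 7 further antenna and photosystem genes, 4 had H4Ac and 2 had H2A.Z. *Lhca6*, for an antenna protein of photosystem I, had 110, 0 and 73 bp under H2A.Z in WT and 373, 471 and 0 bp in *mbd9-1*, where it was the 1 gene of these 41 with a call.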

How the data were processed

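The authors mapped single-end reads of 50 bases to TAIR10 (Bowtie2), used Samtools to drop reads of low quality or from organelles, and called peaks per library against input with HOMER. The deposited lists hold chromosome, start and end in bp, with no score or count, so they do not give the reads behind a peak. The study states a minimum read number for each antibody, and the authors' table of reads per library was not used here. HOMER's version and cutoff were not given in the sources used here.

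Gene models came from RefSeq's annotation of the TAIR10.1 assembly, whose nuclear chromosomes are those of TAIR10. Overlaps and covered lengths used Python 3.11.15 with NumPy 2.4.6 and were tested on simulated lists against bedtools 2.31.1. Figures were drawn with matplotlib 3.10.9. Each of the photosynthesis genes was to be placed in its class. Values per library were planned for genes with an H2A.Z call in WT or *mbd9-1* and for genes with no H4Ac peak in any library. They were also planned for the genes with the highest and lowest mean H4Ac cover of each family. Other genes in the text were named after their values were seen. Members, lists and tests were chosen with earlier results of these data known.

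Genotypes were compared by exact permutation tests over 3 libraries against 3, and WT antibodies by sign-flip tests over 3 pairs, whose pairing comes from the Methods (each chromatin sample was divided between the antibodies). Deviations from the group means correlated by -0.011, 0.0087 and 0.016 in the same-numbered pairs (Pearson's r across 27444 genes, which are not independent). The labels call the libraries replicates and the Methods call them biological.

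Alternatives were other overlap limits, windows and numbers of libraries, lists without peaks of the most common width or narrower, equal numbers of the widest peaks, leaving out each replicate, and leaving out genes under 80% unique. The limit of 95% and the background of equal lengths were added after the data had been seen.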

Additional observations from a re-analysis of the deposited data

How the results depend on the processing

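In each alternative run, the photosynthesis genes had H4Ac, H2A.Z and both marks at a lower share than all protein-coding genes, and neither mark at a higher share (61.9% to 88.1% against 23.8% to 55.2%). The share with H4Ac was 11.9% to 33.3%, against 31.1% to 53.9% of all genes. For WT H2A.Z it was 0 to 6.67% against 15.8% to 42.8%. For *mbd9-1* H2A.Z it was 0 to 7.14% against 6.12% to 32.0%, and lower in each run. For H4Ac cover above H2A.Z it was 9.52% to 19.0% against 30.3% to 36.8%. The count with H4Ac, 9 in the report, was 5 with at least 20% of the window covered, 5 by peak centre, 5 in the gene body and 14 with a peak in at least 1 library, and 7 to 8 without a replicate. The count with WT H2A.Z, 2 in the report, was 1 with at least 20% of the window covered, 1 by peak centre, 0 in the gene body, 1 with all 3 libraries, 1 without the narrowest peaks and 1 with lists of equal length, and 1 to 2 without a replicate. Without replicate 1 or 2 *PSAE-2* was not called. The count in *mbd9-1*, 1 in the report, was 0 with at least 20% of the window covered, 0 by peak centre, 0 in the gene body, 2 with 1000 bp upstream (*LHCB6* was added) and 3 with at least 1 library, and it was 1 without replicate 3, the list with the narrowest peaks. The count with neither mark was 20 of 30 genes after leaving out those under 95% unique. In the runs with a limit on unique stretches, the limit was not applied to the shares of all genes. No gene was under 80% unique, so that limit changed nothing. The count with H4Ac cover above H2A.Z, 7 in the report, was 4 in the gene body, 7 to 8 without a replicate and 7 without the pairing. The count of genes apart between genotypes, 0 in the report, was 0 to 1 without a replicate (*PSBQA* without replicate 2, *PSAE-2* without replicate 3) and 1 with the replicate number as a block (*PSBQA*). Over all genes, the share apart was 13.7%, 20.0% and 17.3% without replicates 1, 2 and 3. With the block it was 11.6%. For WT and *mbd9-1* libraries of the same number, no link beyond the number was given. Their deviations correlated by 0.019, -0.17 and 0.016 (Pearson's r across genes). The WT antibody pairs from the same chromatin had -0.011, 0.0087 and 0.016, so such correlations cannot tell whether the genotypes shared a batch. The cause of these changes was not tested beyond what each setting leaves out. The lists hold no read numbers, so no call was set beside the depth of its library.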

Other observations

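The nearest protein-coding genes on either side of the photosynthesis genes, 72 in all, were counted by the same rule. H4Ac was called at 40 of them (55.6%), H2A.Z at 14 (19.4%), neither at 21 (29.2%) and H2A.Z in *mbd9-1* at 8 (11.1%). Over all protein-coding genes these shares were 46.3%, 28.8%, 35.9% and 16.0%. The 72 genes include those whose peaks reached into the windows of the photosynthesis genes, and the shares carry no test.

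At *LHCB6*, *mbd9-1* H2A.Z peaks covered 899, 594 and 0 bp of the body of the divergent neighbour *AT1G15830*, while the WT H2A.Z lists held 0 bp there in each library. H4Ac peaks covered 2134, 1954 and 2185 bp of the same body in WT. This neighbour was named after its values were seen, and the difference was not tested.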
